A study of Mus musculus with 36 samples.

Results

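The keratins described here were 10 of the 45 keratin genes with at least 1 transcript among the 31102 genes of the single-cell tables, taken by name: Krt14, Krt5, Krt15, Krt17, Krt6a and Krt42, which are known from basal or stratified epithelium, and Krt7, Krt8, Krt18 and Krt19, which are known from simple, luminal epithelium. They were followed in mouse submandibular glands by gland, by genotype and stage, across cell populations named from markers that include no keratin, and within single cells.

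Keratins are the intermediate filament proteins of epithelial cells. A type I keratin pairs with a type II keratin to build a filament, and epithelia differ in the pairs they use. In glands the KRT5 and KRT14 pair marks the basal layer and the contractile myoepithelial cells, the KRT8 and KRT18 pair marks the cells that face the lumen, and KRT6A and KRT17 are best known from injured or proliferating skin and from hair follicles. In the basal layer the filaments are anchored to hemidesmosomes at the basement membrane and to desmosomes between cells.

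Drop-seq, a droplet method that counts the 3′ ends of transcripts with unique molecular identifiers (UMIs), had been applied to the live cells of 1 submandibular gland per library, with 6 control and 7 double-mutant glands at postnatal day 40 (P40) and 6 control and 7 double-mutant glands at P90. Double-mutant mice carried K14-Cre, the floxed β-catenin gain-of-function allele, floxed Bmpr1a for loss of function on both alleles and the Cre-inducible R26-EYFP reporter, controls carried K14-Cre and the reporter without the floxed alleles, and all mice had a C57BL/6 background and were of either sex. Both genotypes thus shared the Cre, which is driven by regulatory sequence of keratin 14, itself one of the genes described here. Whole-gland RNA-seq was available from freshly dissected glands of 2 females, a P70 control and a P100 double mutant, and the transcript tables of a surface-protein experiment (CITE-seq) from 2 control and 2 double-mutant glands at P70. Drop-seq reads come from transcript 3′ ends, so the levels of Ctnnb1 and Bmpr1a do not check the deletions.

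Of 26987 barcodes in the 26 tables, 23346 cells were kept, 10743 from control and 12603 from double-mutant glands, with 650301 to 6994504 UMIs per gland. The median depth was 2062 UMIs per control cell and 1151 UMIs per double-mutant cell, and 19 barcodes occurred in more than 1 table. A doublet caller marked 134 cells (0.574%), after a sort that had already gated on single cells, and these cells were kept. In double-mutant P40 replicate 1, labelled male, 591 Xist UMIs and 1 UMI of Y-linked genes were counted, and in double-mutant P90 replicate 5, labelled female, 0 and 194. These 2 libraries thus went against their sex labels. Several results are also given without them, but the co-detection differences within a stage are not. Whether the stage labels of these 2 libraries hold was not tested. Double-mutant P90 replicate 4 had the highest median share of ribosomal protein transcripts per cell of the 26 libraries.

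The genes lie in 2 clusters of the mouse genome (build mm10, gene spans of GENCODE vM7). The type I genes on chromosome 11 are all on the minus strand: Krt15 at chr11:100131758-100135928, Krt19 at chr11:100140810-100148665, Krt14 at chr11:100203162-100207548, Krt17 at chr11:100256217-100261029 and Krt42 at chr11:100262882-100269871. On chromosome 15 lie the type II genes Krt7 at chr15:101411043-101430313 (plus strand), Krt6a at chr15:101689932-101694307, Krt5 at chr15:101707070-101712891 and Krt8 at chr15:101996711-102004342 (all 3 on the minus strand). Krt18, a type I gene, sits beside its partner Krt8 at chr15:102028216-102032026 on the plus strand. Neighbours within a cluster arose by duplication and are alike in sequence, Krt14 with Krt17 and Krt42 above all, so reads can be divided between them with some error.

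RefSeq start-site windows (GRCm38.p6, 150 bases before to 30 bases after the start) were held for 6 of the 10 genes. Those of Krt5, a basal gene, of Krt42, the gene with the largest genotype difference below, and of the luminal partners Krt8 and Krt18 are shown because these 4 represent the distinct patterns described below. Capitals mark matches, on either strand, to 5 short motifs: the TATA box TATAAA, held by 8.37% of all 32851 RefSeq windows of this length, the TCF/LEF motif CTTTGNTC (3.06%), the AP-1 motif TGANTCA (4.99%), the AP-2 motif GCCNNNGGC (11.5%) and the GC box GGGCGG (31.0%).
Krt5, chr15:101712876-101713055, minus strand: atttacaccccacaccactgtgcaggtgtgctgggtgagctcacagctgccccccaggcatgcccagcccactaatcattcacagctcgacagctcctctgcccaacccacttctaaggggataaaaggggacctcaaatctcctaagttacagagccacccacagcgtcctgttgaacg
Krt42, chr11:100269922-100270101, minus strand: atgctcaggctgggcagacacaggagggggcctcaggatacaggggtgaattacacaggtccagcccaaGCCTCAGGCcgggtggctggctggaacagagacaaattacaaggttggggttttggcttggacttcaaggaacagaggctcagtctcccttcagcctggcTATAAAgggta
Krt8, chr15:102004313-102004492, minus strand: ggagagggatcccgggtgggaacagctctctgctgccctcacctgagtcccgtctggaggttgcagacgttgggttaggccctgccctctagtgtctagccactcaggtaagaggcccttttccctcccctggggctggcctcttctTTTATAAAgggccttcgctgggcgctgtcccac
Krt18, chr15:102028066-102028245, plus strand: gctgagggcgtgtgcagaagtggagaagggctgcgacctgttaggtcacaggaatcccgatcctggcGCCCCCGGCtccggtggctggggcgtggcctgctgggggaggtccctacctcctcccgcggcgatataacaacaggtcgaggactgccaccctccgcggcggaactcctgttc
Krt42 and Krt18 each held 1 AP-2 match, Krt42 held 1 TATA box and Krt8 held 2 that overlap on opposite strands. None of the 5 motifs was found in the Krt5 window, which says only that these letters are not there. The GENCODE span of Krt42 ends at 100269871, outside the RefSeq window, so the annotations disagree on where this transcript starts.

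Across whole glands, the basal and stress-associated keratins Krt5, Krt17, Krt6a and Krt42 and the luminal keratin Krt19 were higher in double-mutant than in control glands, while the abundant luminal keratins Krt7, Krt8 and Krt18 differed by 0.34 or less on the log2 scale. Levels are given as CPM, the UMIs of a gene per 1000000 UMIs of a gland, over all its cells. Differences are log2 fold changes, double-mutant against control, from edgeR's quasi-likelihood test on UMIs summed per gland with sex and stage as covariates, TMM scaling and Benjamini-Hochberg adjustment over all genes tested. In such sums, fewer cells of a type and less RNA per cell cannot be told apart.

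Krt14, the main type I keratin of basal cells, had 1.11, 18.3 and 95.6 CPM in the lowest, median and highest of the 12 control glands and 3.56, 51.3 and 223 in the 14 double-mutant glands. The groups overlapped, with 5 double-mutant glands above every control gland, and the fold change of 0.92 ± 0.41 (SE) did not pass the test (edgeR adjusted p = 0.103). Krt5, its type II partner, had 0.317, 4.46 and 29.9 CPM in the lowest, median and highest control gland and 1.02, 24.8 and 126 in double-mutant glands. Again the groups overlapped, with 4 double-mutant glands above every control, but Krt5 was higher in double mutants by 1.34 ± 0.43 (adjusted p = 0.0289). Without the 2 libraries that went against their sex labels this call was lost (1.13 ± 0.44, adjusted p = 0.0817, within 0.000269 to 0.202 over its 10 alternatives). Krt15, a keratin of resting basal cells, was listed at 0 in 4 control and 2 double-mutant glands, with medians of 1.37 and 4.22 CPM and highest values of 13.2 and 75.1. Its fold change of 0.54 ± 0.62 was smaller than its error (adjusted p = 0.554).

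Krt17, a type I keratin induced in injured and hyperproliferative skin, had 0.317, 9.63 and 65.7 CPM in the lowest, median and highest control gland and 3.82, 37.4 and 200 in double-mutant glands. It was higher in double mutants by 1.41 ± 0.42 (adjusted p = 0.0187), with 12 of 14 double-mutant glands above the control median. Krt6a, a type II keratin of the same settings, was at 0 UMIs in 8 of 12 control glands, which never passed 1.71 CPM, and at 0 in 2 of 14 double-mutant glands, which had a median of 11.8 and reached 59.3. Its 10 double-mutant glands above every control are the clearest separation among the basal members together with the 9 of Krt42. Such counts, here and for the other keratins, are on plain UMI totals, the scale that put the median log2 fold change of all genes at 0.68. How many of all genes separated as well was not counted. Krt42, a type I keratin of the nail and hair follicle region, was at 0 in 10 of 12 control glands and 5 of 14 double-mutant glands, with 2 UMIs in all controls together and 356 in all double mutants.

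Fitted log2 fold changes were 4.96 ± 0.82 for Krt6a (adjusted p = 0.000260) and 6.58 ± 1.19 for Krt42 (adjusted p = 0.000600), and for such rare control counts these sizes depend on the prior count of the fit. Pooled over all cells, the ratio of double-mutant to control CPM was 45.7 (exact 95% interval 22.9 to 107) for Krt6a, from 294 against 8 UMIs. For Krt42 it was 221 (60.8 to 1835), from 356 against 2 UMIs. These intervals, like the others below, cover counting error only.

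Among the luminal keratins, Krt19, the smallest keratin and a duct marker, had 0.419, 2.42 and 5.23 CPM in the lowest, median and highest control gland and ranged from 0.509 to 31.2 in double-mutant glands, with group medians of 9.88 at P40 and 10.1 at P90. It was higher by 1.42 ± 0.39 (adjusted p = 0.0123), and 10 of 14 double-mutant glands lay above every control. Krt7, a type II keratin of ducts, had medians of 78.8 and 90.4 CPM in control and double-mutant glands, within ranges of 30.1 to 129 and 39.5 to 191. Krt8 had medians of 208 and 326 within 101 to 547 and 86.8 to 546, and its partner Krt18 medians of 543 and 604 within 314 to 1009.8 and 278 to 1194. The ranges overlapped widely. The fold changes were −0.19 ± 0.19 for Krt7 (adjusted p = 0.484), −0.09 ± 0.19 for Krt8 (adjusted p = 0.763) and −0.34 ± 0.20 for Krt18 (adjusted p = 0.214).

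In all, 5 of the 10 keratins were called higher and none lower, where 22.0% of the 10488 genes tested were called in either direction, 1515 higher and 793 lower. All 10 passed the filter on low counts, but Krt6a, Krt42 and Krt19 did not pass it among control glands alone. TMM assumes that most genes do not differ, and scaling to plain UMI totals moved the median of all genes from 0.02 to 0.68 and the split of calls to 5532 higher and 51 lower. With that scaling Krt7, Krt8 and Krt18 changed sign, to 0.43, 0.57 and 0.29, all below that median, and the called keratins stayed above it.

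The direction was also read within the 5 preparation batches that held both genotypes, using the batch number of the library titles. The double-mutant mean was higher in 5 of 5 batches for Krt5, Krt17, Krt19 and Krt8, in 4 for Krt14, Krt15 and Krt6a, and in 3 for Krt42, Krt7 and Krt18. These means are on plain UMI totals, the scale that put the median of all genes over all glands at 0.68. How often other genes were higher in as many batches was not counted. With batch as a term in those 19 glands, 6 keratins were called where 2146 of 10988 genes were (19.5%), Krt14 among them (1.52 ± 0.46, edgeR adjusted p = 0.0328, within 0.0153 to 0.369 over its 10 alternatives). Krt14 was also called without double-mutant P90 replicate 7, its lowest double-mutant gland (1.03, edgeR adjusted p = 0.0309). The cells in the glands also differed: the median share of basal-like cells was 2.05% (0 to 9.94%) in control and 5.92% (0.588 to 25.5%) in double-mutant glands, and that of macrophage or monocyte-like cells 4.31% and 14.1%. The summed level of the 6 basal markers in the tables, none of them at 0 in either genotype, ranged from 36.7 to 105 CPM in control and from 37.4 to 397 in double-mutant glands. Their part in the gland differences was not tested in these sums, and the levels within cell populations are given below.

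**Figure D1:**
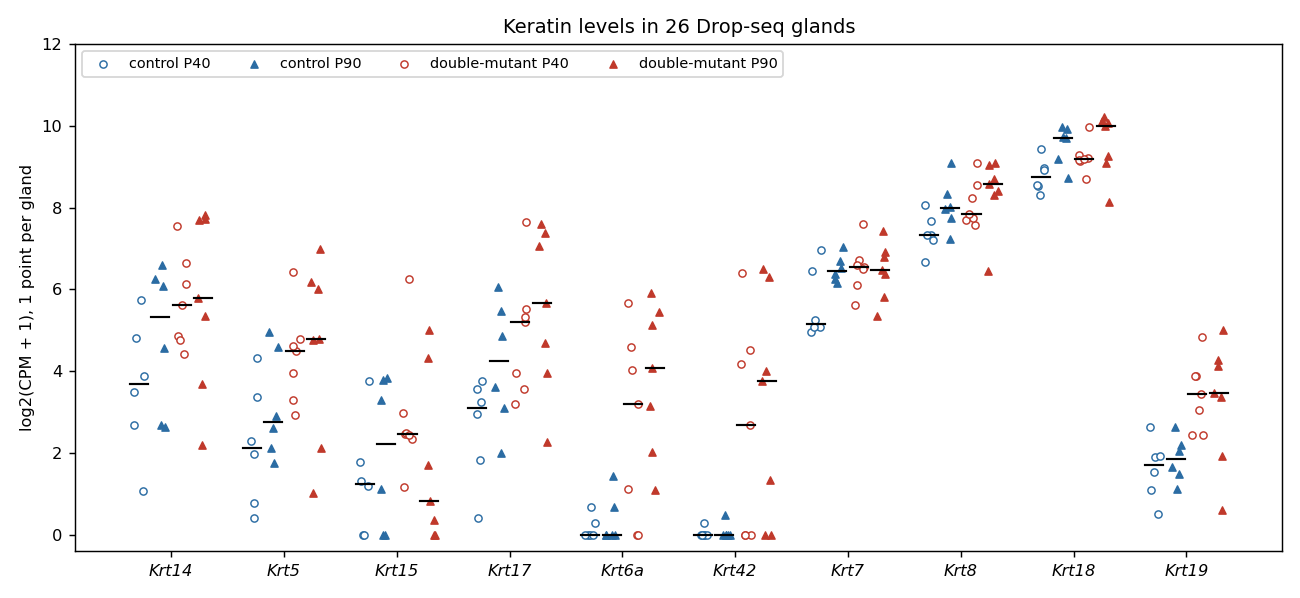
Each point is 1 of 26 Drop-seq glands, with the keratin level on the y axis as log2(CPM + 1), open circles for P40, filled triangles for P90, blue for control, red for double-mutant and a black bar at each group's median. Krt6a and Krt42 sit at or near 0 in control glands and spread upward in double-mutant glands, whereas the groups of Krt7, Krt8 and Krt18 overlap.

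By stage the calls were fewer. At P40, 0 of the 8 keratins tested were called by edgeR (background 0.255% of 10213 genes), although Krt14, Krt5, Krt17 and Krt19 had an unadjusted p under 0.05 and DESeq2, which called 681 of the genes (6.67%), called 2, Krt17 and Krt19. The medians at P40 were 12.1 and 48.1 CPM for Krt14 in control and double-mutant glands, 3.39 and 21.5 for Krt5, 7.58 and 35.6 for Krt17, and 2.30 and 9.88 for Krt19. Krt17 had a fold change of 1.87 ± 0.57 (edgeR adjusted p = 0.106) and Krt19 one of 1.47 ± 0.38 (adjusted p = 0.0791). Krt6a and Krt42 did not pass the filter at this stage, with 3 and 1 UMIs in 6 control glands and 154 and 203 in 7 double-mutant glands.

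At P90, Krt6a was the 1 keratin of 9 tested that was called (4.80 ± 0.85, edgeR adjusted p = 0.00789, against a background of 4.90% of 9094 genes, 324 higher and 122 lower). It passed the filter through the double-mutant glands, since the 6 control glands held 5 Krt6a UMIs and 4 of them none. With plain totals that split was 785 and 40. All 7 double-mutant glands held Krt6a, with a median of 15.9 and a highest value of 59.3 CPM, and 6 of them lay above every control gland. Krt42 did not pass the filter at P90, where 5 of 7 double-mutant glands held it and 1 of 6 control glands held 1 UMI. Krt7 had a fold change of −0.57 ± 0.21 (adjusted p = 0.115), with medians of 86.4 in control and 87.6 CPM in double-mutant glands. The double-mutant glands at this stage ranged widely: Krt14 was 207, 223 and 208 CPM in replicates 3, 4 and 5, and 3.56 in replicate 7.

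The difference between the stages was tested itself. For the interaction of genotype and stage 0 of 10 keratins were called by edgeR and 0 by DESeq2 (background 0.00876%), and 1, Krt7, had an unadjusted p under 0.05 (−0.78 ± 0.36, adjusted p = 0.883). Between P40 and P90 within double-mutant glands 0 of 9 were called by either tool and 0 had an unadjusted p under 0.05, and the background was also 0 percent. Within control glands 0 of 7 were called by either tool (background 10.9%), and Krt17 alone had an unadjusted p under 0.05, with medians of 7.58 CPM at P40 and 19.8 at P90 and a fold change of 1.39 ± 0.45 (adjusted p = 0.0670). Control glands of the 2 stages came from different batches, so stage and batch cannot be told apart there.

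As a share of the UMIs of both pairs, Krt14 and Krt5 together made up a median of 2.91% (0.265 to 6.95%) in control P40 glands and 5.78% (3.15 to 23.8%) in double-mutant P40 glands. At P90 the medians were 4.59% (highest 13.6%) and 7.01% (highest 24.0%). Krt8 and Krt18 thus carried most pair UMIs in every gland, and the ranges of the groups overlapped at both stages.

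Keratins belong to epithelial cells, and restricting each gland to its epithelial-like cells removed immune and stromal cells from the denominator. Cycling and unnamed cells were left out too. Here 6 of 10 keratins were higher in double mutants and none lower (background 8.74% of 8248 genes, 571 higher and 150 lower, or 3705 and 27 with plain totals). The log2 fold changes were 1.59 ± 0.47 for Krt14 (edgeR adjusted p = 0.0330), 1.98 ± 0.47 for Krt5 (0.00812), 2.22 ± 0.46 for Krt17 (0.00299) and 2.41 ± 0.45 for Krt19 (0.00109). Krt6a and Krt42 stood at 5.64 ± 0.88 (0.000165) and 7.48 ± 1.22 (0.000249). Control cells of all populations together held 8 and 2 UMIs of them, so both passed the filter through the double-mutant glands. Krt19 had not passed it among whole control glands alone. Krt15 was not called (1.08 ± 0.65, adjusted p = 0.280), nor were Krt7 (0.38 ± 0.18, 0.164), Krt8 (0.37 ± 0.19, 0.211) and Krt18 (0.06 ± 0.18, 0.870). Without the 2 libraries that went against their sex labels Krt14 was no longer called (1.49 ± 0.50, edgeR adjusted p = 0.0854) and the other 5 were. With plain totals, which moved the median of all genes to 0.66, Krt7, Krt8 and Krt18 were called too, at 1.06, 1.13 and 0.78, so 9 of 10 were. The unnamed cells left out had held 10.6% of control and 23.8% of double-mutant Krt18, and for Krt8 9.31% and 21.0%. Krt19 went the other way, at 33.7% and 16.9%. The mix of cells kept also differed. Acinar-like cells had median shares of 27.5% and 9.32% of all cells, and basal-like cells 2.05% and 5.92%. How far this shaped the fold changes was not tested.

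Within basal-like cells the picture was narrower. In the 20 glands with at least 10 such cells, 2 of 9 keratins tested were called (background 12.2% of 1064 genes), Krt42 at 6.54 ± 1.23 (edgeR adjusted p = 0.00100) and Krt6a at 3.92 ± 0.85 (adjusted p = 0.00271). Pooled basal-like cells held 333 Krt42 UMIs in double mutants and 1 in controls, a CPM ratio of 172 (30.7 to 6829.8), and 209 Krt6a UMIs against 6, a ratio of 18.0 (8.15 to 49.7). With so few control UMIs, both passed the filter through the double-mutant glands. Krt14 averaged 1402 ± 412 CPM (SD, n = 7 glands) in control and 1414 ± 466 (n = 13) in double-mutant basal-like cells, a fold change of 0.10 ± 0.19 (adjusted p = 0.783). Krt5 averaged 326 ± 147 and 574 ± 255 (0.78 ± 0.30, adjusted p = 0.0976) and Krt17 842 ± 381 and 1205 ± 677 (0.69 ± 0.29, adjusted p = 0.132). Krt15, Krt7, Krt8 and Krt18 were tested but not called, and none had an unadjusted edgeR p under 0.05. Over the alternatives their fold changes leaned lower, from −0.69 to 0.16 for Krt15 and −0.57 to 0.13 for Krt7. Those of Krt8 ran from −0.82 to 0.25 and those of Krt18 from −0.97 to 0.12. Krt19 did not pass the filter, with 3 and 26 UMIs.

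The genotypes differed in which basal-like clusters they held, as described below. In a fit chosen after seeing the data, within the 1 basal-like cluster that held both genotypes in number (led by Ucma, 17 glands), 0 of 6 keratins tested were called by edgeR and 0 had an unadjusted p under 0.05, and of all 507 genes tested only 2 were called (0.394%). Krt42 and Krt6a did not pass the filter there, with 9 and 5 UMIs in 544 cells. In duct-like cells 0 of 4 keratins were called by edgeR or DESeq2 and 0 had an unadjusted p under 0.05 (background 2.74%), with Krt19 at 0.74 ± 0.41 (adjusted p = 0.355) and Krt8 at 0.37 ± 0.19 (adjusted p = 0.313). In acinar-like cells the counts were again 0 of 2 by both tools and 0 unadjusted (background 0.615%), for Krt8 at 0.23 ± 0.22 and Krt18 at 0.17 ± 0.18.

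**Figure D2:**
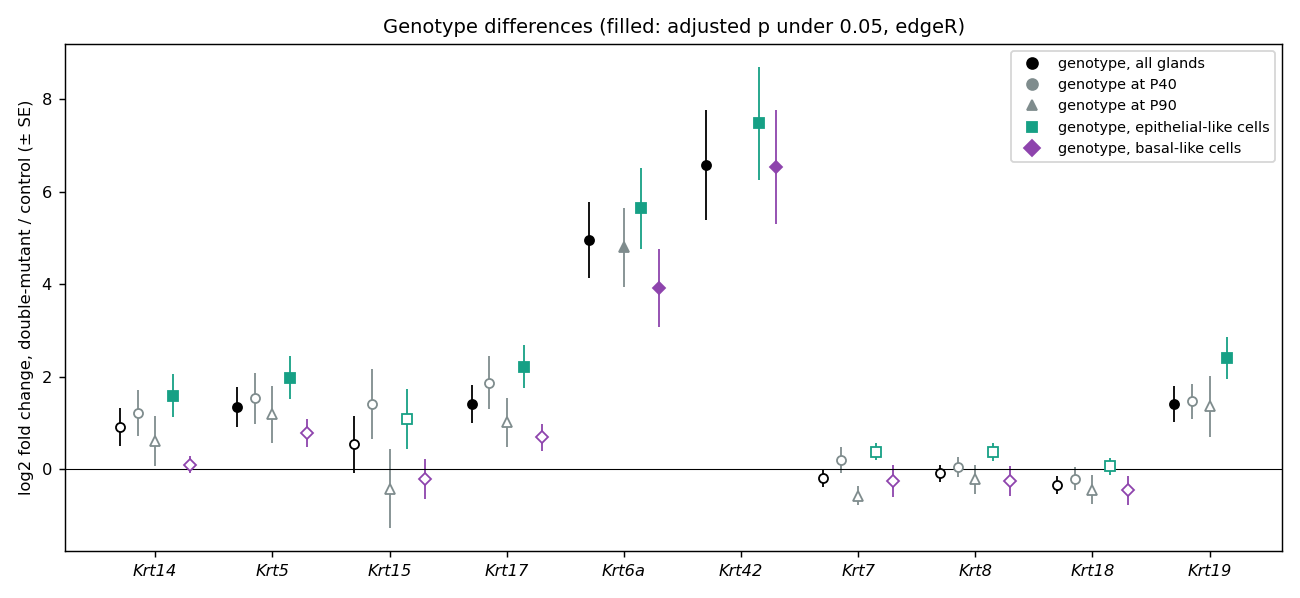
The y axis gives the log2 fold change of double-mutant over control with its standard error for each keratin, over all glands, at P40, at P90, in epithelial-like and in basal-like cells, with filled symbols where the edgeR adjusted p was under 0.05. Krt6a and Krt42 lie far above the other keratins in each comparison in which they were tested, and Krt7, Krt8 and Krt18 lie within 0.57 of 0.

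The populations were found by clustering without any keratin gene and named from marker lists without keratins, so the keratin levels are a readout of them. Names were given to 17 populations, and 4359 cells (18.7%) stayed unnamed. Levels are means ± SD over the glands with at least 10 cells of a population. Free RNA in a suspension can put stray UMIs into any cell, but the source of keratin UMIs outside epithelial-like cells was not tested. Krt14 was seen in 48.4% of basal-like cells (median 658 UMIs). It was seen in 0.996% of macrophage or monocyte-like cells (median 638 UMIs) and 1.28% of endothelial-like cells (median 723 UMIs). Krt18 was seen in 33.9% of the basal-like and 8.20% of the macrophage or monocyte-like cells.

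Krt14 was highest in basal-like cells (1410.2 ± 437 CPM, n = 20 glands), followed by myoepithelial-like cells (1019.5 ± 545, n = 14), which did not differ beyond their spread, and then by the double-mutant-rich population named CSC-like, for cancer stem cells, from Wnt target and progenitor markers (416 ± 234, n = 9). Krt5 had the same order, at 487 ± 250, 373 ± 266 and 304 ± 160, with neighbours within 1 SD of each other. Krt17 stood at 1078 ± 606 in basal-like, 337 ± 207 in myoepithelial-like and 165 ± 130 in CSC-like cells. Krt15 reached 188 ± 170 in basal-like cells and 32.8 ± 39.9 in myoepithelial-like cells. The basal keratins thus led in the same populations, although no keratin had been used to find or name them.

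Krt42 and Krt6a were narrower. Krt42 reached 219 ± 321 CPM in basal-like cells and at most 4.66 ± 9.36 in the other named populations. Krt6a reached 164 ± 179 in basal-like cells and 122 ± 80.3 (n = 10) in luminal Clu-like cells, a population of 351 double-mutant cells and 1 control cell, which did not differ beyond their spread. Of all double-mutant Krt42 UMIs 93.5% lay in basal-like cells, and of all double-mutant Krt6a UMIs 71.1% lay in basal-like and 16.3% in luminal Clu-like cells.

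The luminal keratins had another order. Krt18 was highest in intercalated duct-like cells (3494 ± 1471 CPM, n = 24), luminal Clu-like cells (3145 ± 1054, n = 10) and striated duct-like cells (2523 ± 838, n = 25), neighbours within 1 SD of each other. Krt8 was highest in luminal Clu-like (1984 ± 633), intercalated duct-like (1387 ± 688) and striated duct-like cells (989 ± 487). Krt7 led in duct progenitor-like cells (623 ± 165, n = 23), CSC-like cells (508 ± 140) and striated duct-like cells (490 ± 194). Basal-like cells held luminal keratins too, with Krt18 at 1230.4 ± 591, Krt8 at 611 ± 298 and Krt7 at 464 ± 294, whereas the acinar-like secretory cells held little, with Krt18 at 198 ± 139 and Krt8 at 85.1 ± 61.5.

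Among the named populations, Krt19 was highest in luminal Clu-like cells (187 ± 114 CPM, n = 10), ahead of CSC-like cells (84.2 ± 136, n = 9), which did not differ beyond their spread. It was also at 317 CPM in an unnamed cluster of 131 cells led by Duoxa2, an oxidase maturation factor of duct cells, with 316 in its control and 318 in its double-mutant cells. In double-mutant glands 35.6% of Krt19 UMIs lay in luminal Clu-like cells. In control glands, which had 1 such cell, 33.7% lay in unnamed, 27.0% in granular duct-like and 21.3% in striated duct-like cells.

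**Figure D3:**
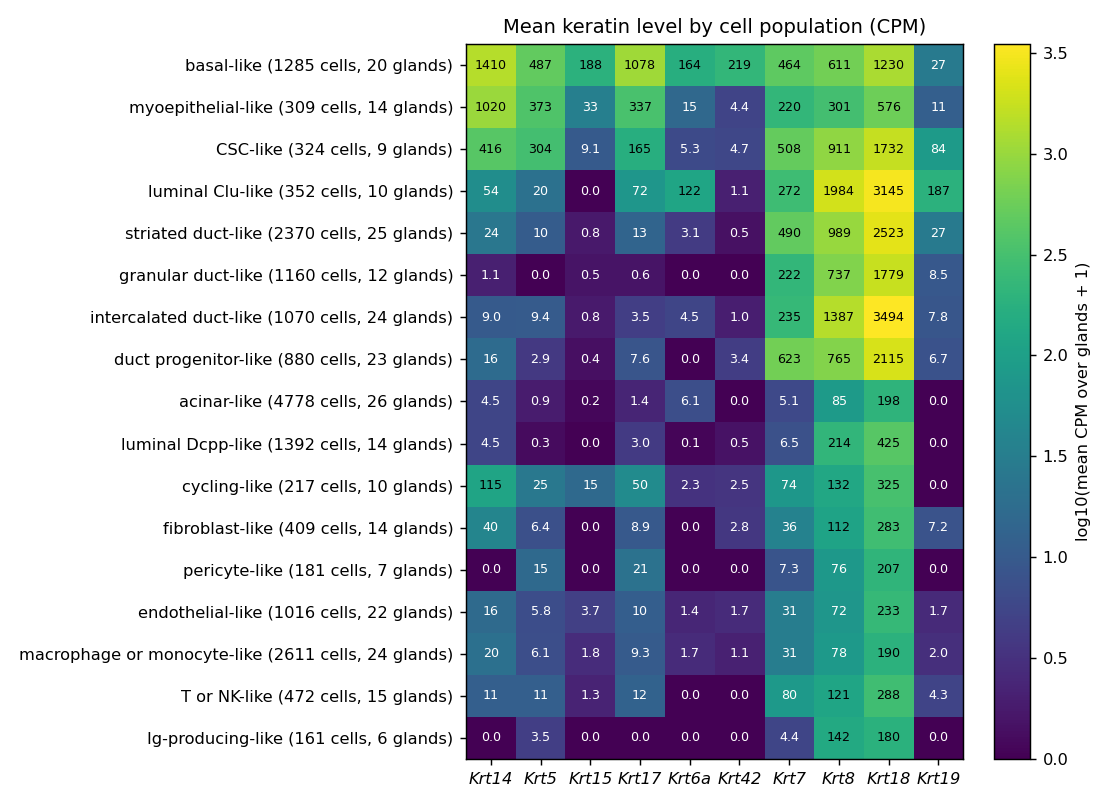
Rows are 17 named populations and columns the 10 keratins, with colour showing log10(mean CPM + 1) over glands and the printed number the mean. Krt14, Krt5, Krt15, Krt17 and Krt42 peak in basal-like cells, while Krt8 and Krt18 peak in luminal Clu-like and duct-like cells.

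Over the 17 populations, the genes whose mean level ran most alike with Krt14 among 13800 genes were Sostdc1, a secreted BMP and Wnt antagonist (Pearson r = 0.95), Trp63, the transcription factor of basal epithelium (0.94), and Ctps (0.92). For Krt5 they were Trp63 (0.94), the stratified-epithelium lectin Lgals7 (0.93) and Sostdc1 (0.92). For Krt8 and Krt18 they were the same 3 genes, the tight junction gene Cldn7 (0.97 with each), the adhesion molecule Epcam (0.95 and 0.96) and the epithelial transcription factor Elf3 (0.94 and 0.96). For Krt7 they were Cldn4 (0.97), Prdx2 (0.95) and Pam16 (0.95), and for Krt19 Tnnt2 (0.92), Gipc2 (0.91) and Gm14719 (0.91), the last 3 from 100 or fewer UMIs each. The populations share libraries and depth, Trp63 was also a marker used for naming, and these values describe likeness of pattern alone.

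Basal-like cells fell into 3 clusters, each with its own keratin profile, and the values below are pooled CPM with exact 95% Poisson intervals. These clusters were found in the same cells, so the values are a description. The first, led by Chil1, a chitinase-like secreted protein, with 556 of 561 cells from double mutants and a median of 499 UMIs per cell, held Krt42 at 884 (788 to 987) and Krt15 at 365 (305 to 434). Its luminal keratins were low, with Krt18 at 201 (157 to 254) and Krt8 at 241 (192 to 298). The second, led by Ucma, a secreted matrix protein best known from cartilage, with 300 control and 244 double-mutant cells, held Krt18 at 1435 (1334 to 1542) and Krt8 at 701 (631 to 777). It nearly lacked Krt42, at 17.2 (7.89 to 32.7), and Krt6a, at 9.58 (3.11 to 22.4). The third, led by Tnc, the matrix protein tenascin C, with 30 control and 150 double-mutant cells, held Krt6a at 802 (675 to 945), Krt17 at 2032 (1828 to 2253) and Krt18 at 1942 (1742 to 2158).

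Krt14 varied far less among them, at 1354 (1235 to 1481), 1320.2 (1223 to 1423) and 1631 (1449 to 1831). In the Ucma-led cluster Krt42 had 1 UMI in control and 8 in double-mutant cells, and Krt6a 0 and 5. In the Tnc-led cluster Krt6a had 6 UMIs in 30 control cells, 188 CPM (69.0 to 409), and 136 in 150 double-mutant cells, 936 CPM (786 to 1108). The 2 myoepithelial-like clusters also differed, with Krt14 at 1838 (1642 to 2050.1) in 178 cells and 302 (251 to 361) in 131 cells, and Krt18 at 80.1 (43.8 to 134) and 798 (713 to 890).

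Several keratins were unevenly spread inside the Chil1-led cluster. The 312 Krt42 UMIs came from 57 of 561 cells in 8 glands, up to 80 UMIs in a single cell, and the 10 cells with most held 67.0% of them. The 10 cells with most Krt15 likewise held 62.0% of its 129 UMIs, from 46 cells, and those with most Krt6a 52.9% of its 68 UMIs, from 35 cells, so the levels of these keratins there rest on few cells. For the more often detected Krt14 and Krt17 the shares were 19.5% of 478 and 19.9% of 407 UMIs. Of the 57 cells with Krt42, 30 also had Krt14, 16 had Krt5, 12 had Krt15 and 11 had Krt8 or Krt18.

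**Figure D4:**
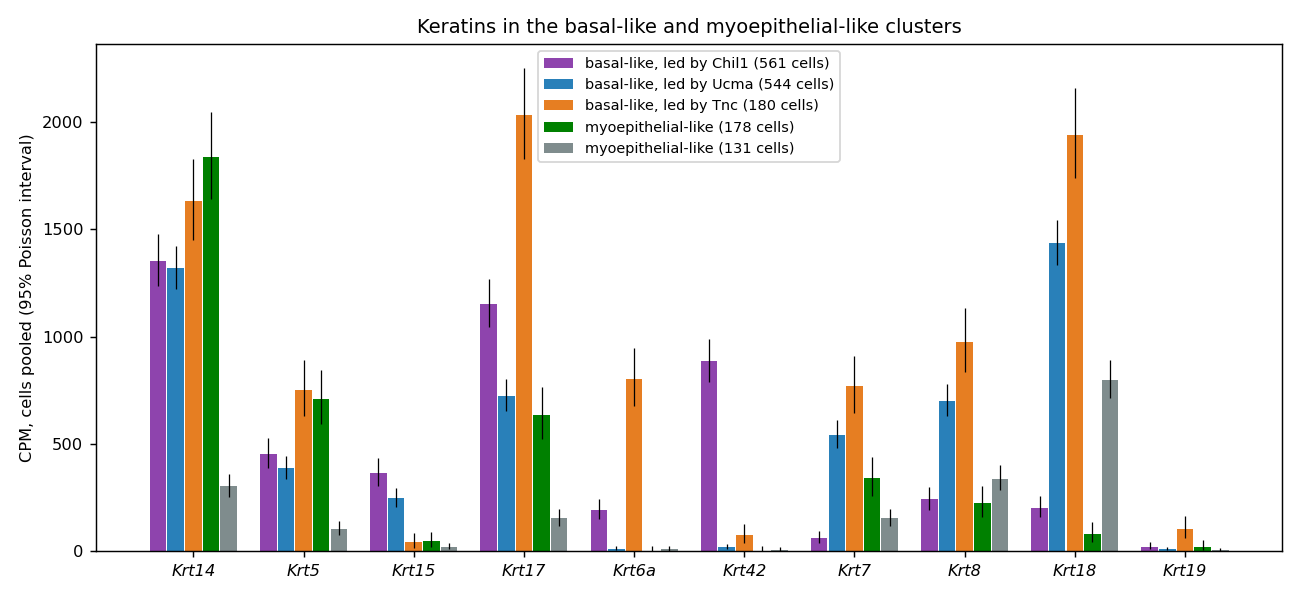
Bars give the pooled level of each keratin in CPM in the 3 basal-like and 2 myoepithelial-like clusters, with exact 95% Poisson intervals that cover counting error only. Krt42 stands out in the cluster led by Chil1 (884) and Krt6a in that led by Tnc (802), while Krt14 is of like height in the 3 basal-like clusters.

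Cells with UMIs of a basal keratin (Krt14 or Krt5) and of a luminal keratin (Krt8 or Krt18) were counted after each cell was thinned to 500 UMIs, because double-mutant cells were shallower. This left out 351 control cells (3.27%) and 2624 double-mutant cells (20.8%). Among basal-like cells the loss was more unequal, with 305 of 335 control and 541 of 950 double-mutant cells kept. The share of cells with both was 0%, 0.689% and 3.56% in the lowest, median and highest of 12 control glands and 0.147%, 1.43% and 2.41% in 14 double-mutant glands. The means of 1.07% and 1.29% differed by 0.222 percentage points (two-sided permutation p = 0.547). Without thinning the difference was 0.0155 points (permutation p = 0.986), and without the cells marked as doublets 0.213 points (permutation p = 0.558). At P40 it was 0.679 points (exact permutation p = 0.0723) and at P90 −0.236 points (exact permutation p = 0.699). Permuted within the 5 batches with both genotypes it was 0.586 points (permutation p = 0.0648).

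A product of the separate shares shows how often both would fall in 1 cell if they were unrelated within a gland. The median share of cells with the basal pair was 2.40% in control and 4.29% in double-mutant glands, that with the luminal pair 30.5% and 31.2%, and the median product 0.631% and 1.23%. The median shares with both lay close to these products in either genotype. Over all cells the products also count immune and stromal cells, so this closeness does not show that the pairs are unrelated within epithelium. Among epithelial-like cells alone the median share was 0.891% against a median product of 0.910% in control glands. In double-mutant glands it was 2.41% against 3.31%.

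Basal-like cells carried most of the overlap, with 87 of 112 control cells with both (77.7%) and 70 of 119 double-mutant ones (58.8%). Of 846 basal-like cells 157 had both (18.6%), against a product of 20.3%. The share was 9.89% in myoepithelial-like cells (28 of 283), 4.31% in CSC-like cells (9 of 209) and 2.65% in luminal Clu-like cells (7 of 264). In macrophage or monocyte-like cells, which should make neither, 3 of 1659 had both (0.181%, median 875 UMIs against 866 in basal-like cells). In acinar-like cells it was 0 of 4739 at 500 UMIs per cell, but 22 of 4778 (0.460%) at their full depth, where macrophage or monocyte-like cells had 13 of 2611 (0.498%).

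Within basal-like cells the mean share with both was lower in double-mutant glands, a call that was lost in several alternatives given below. It was 11.1%, 28.6% and 41.2% in the lowest, median and highest of 7 control glands and 4.55% and 11.1% in the lowest and median of 13 double-mutant glands, the highest of which had both in 7 of its 14 basal-like cells. The means of 28.1% ± 9.16 and 16.2% ± 12.1 differed by −11.9 percentage points (exact permutation p = 0.0430). At P40, 3 control and 7 double-mutant glands differed by −3.87 points (exact permutation p = 0.617). At P90, 4 control glands of 25.0% to 41.2% lay above 6 double-mutant glands of 7.41% to 18.2% without overlap, a difference of −19.3 points (exact permutation p = 0.00952, the smallest this design can give). The P90 glands included double-mutant replicate 5, at 9.09%, which went against its sex label, and the P90 difference was not computed without it. The difference between the stages was not tested. The luminal pair was seen in a median of 55.9% of control and 36.4% of double-mutant basal-like cells, and the basal pair in 57.1% and 46.5%.

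Within the Ucma-led cluster, a choice made after seeing the data, this difference was −4.29 points (7 against 6 glands, exact permutation p = 0.509), with 6 double-mutant glands left of 13. At P90 the 4 control glands averaged 34.8% there and the 1 double-mutant gland left had 15.8%. Without the cells marked as doublets the difference over all basal-like cells was −12.2 points (exact permutation p = 0.0377). Without the 2 libraries that went against their sex labels it was −11.2 points (exact permutation p = 0.0728), and without double-mutant P90 replicate 4, which had the highest ribosomal share, −11.2 points (exact permutation p = 0.0602). Within batch 9 the control glands had 28.6% and 25.0% and the double-mutant gland 7.41%. Within batch 12 the control glands had 26.7% and 31.8% and the double-mutant glands 27.9% and 18.2%, and within batch 14 the control gland had 11.1% and the double-mutant gland 21.9%.

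**Figure D5:**
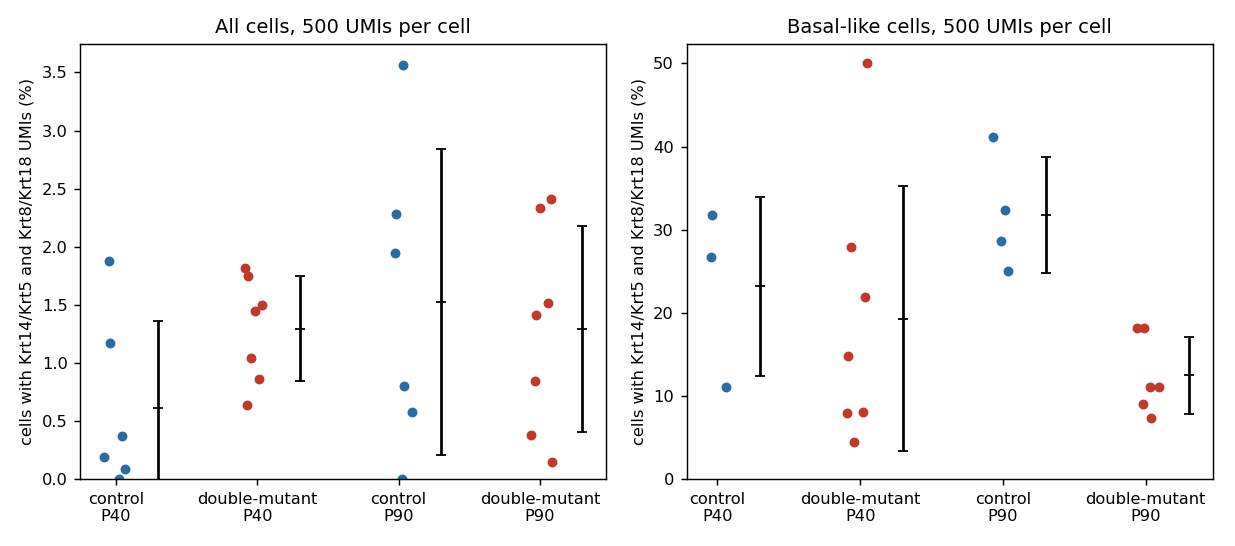
The y axis gives the percentage of cells, thinned to 500 UMIs, with a UMI of Krt14 or Krt5 and a UMI of Krt8 or Krt18, for all cells (left) and basal-like cells (right), with 1 point per gland and the mean ± SD per group, the lower bar of control P40 being cut at 0. Among basal-like cells the 4 control glands at P90 lie above the 6 double-mutant glands at P90, whereas the groups overlap among all cells.

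The genes that work with keratins were counted from fixed lists, over all glands, where the median of all genes was 0.02 and 22.0% of them were called. Of the other keratins, 3 of 35 passed the filter: Krt79, a keratin of hair follicle and sebaceous duct cells, was higher by 2.38 ± 0.54 (edgeR adjusted p = 0.00376), and Krt10 (−0.67 ± 0.23, 0.0372) and Krt23 (−0.67 ± 0.22, 0.0293) were lower. Of the desmosome and hemidesmosome anchors 17 of 21 were tested, 2 were higher and 1 lower, with a median of 0.20, a share no larger than that of all genes. These were the hemidesmosomal collagen Col17a1 (2.38 ± 0.58, adjusted p = 0.00645), the laminin receptor chain Itgb4 (0.60 ± 0.18, 0.0187) and the tetraspanin Cd151 (−0.41 ± 0.12, 0.0184). Of the regulators of basal and luminal epithelium 14 of 17 were tested (median −0.07), with Trp63 higher (2.06 ± 0.48, adjusted p = 0.00440) and Elf5 lower (−0.67 ± 0.23, 0.0381), again a share no larger than that of all genes. Trp63, Col17a1 and Itgb4 were also markers of basal-like cells, whose share differed between the genotypes.

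Of 15 squamous differentiation genes 8 were tested and 4 were higher, with a median of 1.28: Krtdap (5.96 ± 1.07, edgeR adjusted p = 0.00176), Dmkn (4.73 ± 0.75, 0.000213), Lgals7 (3.68 ± 0.52, 5.50e-05) and Calml3 (1.49 ± 0.35, 0.00440). Only 3 squamous genes passed the filter among control glands alone and 7 among double-mutant glands alone. Some thus passed it through the double-mutant glands, and the counts and medians of this list lean toward genes high there. Among 8 other intermediate filament genes 4 were tested and 3 were higher, with a median of 1.56: the nuclear lamin Lmnb1 (2.17 ± 0.37, adjusted p = 0.000327), the mesenchymal filament Vim (1.76 ± 0.32, 0.000623) and Nes (1.36 ± 0.41, 0.0217). Vim belongs to stromal and immune cells, whose summed markers were also higher, for macrophages with medians of 188 in control and 1376 CPM in double-mutant glands. Within epithelial-like cells, where 8.74% of all genes were called, the called members were 7 of 8 squamous genes (median 1.58), 5 of 17 anchors (0.62), 2 of 14 regulators (0.34), 2 of 4 other keratins (1.64) and 1 of 3 other filament genes (0.55), all higher. Within basal-like cells, against a background of 12.2%, they were 1 of 4 squamous genes (median 0.46), 3 of 9 anchors (0.87), 2 of 5 regulators (0.42) and 0 of 1 other filament genes, and no other keratin was tested.

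Whole-gland RNA-seq, with 1 gland per genotype (control P70, double mutant P100; 34515744 and 34729551 counts in genes) had no replicates, so its ratios compare 2 libraries and their exact 95% intervals cover counting error only. Levels are counts per kilobase of exon, scaled to CPM. Krt18 and Krt8 were the highest of the 10, at 128 and 58.2 in the control and 165 and 77.4 in the double-mutant gland, ratios of 1.29 (1.24 to 1.33) and 1.33 (1.27 to 1.39). Krt7 stood at 10.6 and 7.50 (2573 and 1837 counts) and Krt14 at 7.81 and 5.91 (0.757, 0.658 to 0.870). On this scale the luminal pair was thus far above the basal pair in both glands.

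Past a 2-fold difference, 2 of the 10 keratins were higher and 2 lower in the double mutant, against a background of 17.8% of 15265 genes in either direction. Krt6a had 49 counts against 1 (ratio 48.7, 8.34 to 1962), and Krt42 17 against 0, at least 5.63-fold higher than a floor of 3 counts. Krt5 had 192 against 455 counts (ratio 0.419, 0.352 to 0.498) and Krt15 8 against 160 (0.0497, 0.0211 to 0.100). Krt17 had 172 against 101 (1.69, 1.32 to 2.19) and Krt19 184 against 92 (1.99, 1.54 to 2.58). With TMM factors, where 15.5% of the genes were past 2-fold, 4 keratins were higher, with Krt17 at 2.08 and Krt19 at 2.44. The 1 lower was Krt15 at 0.0609, while Krt5 at 0.514 was no longer past 2-fold. Krt5 was thus lower in the bulk double-mutant gland but had a higher median in dissociated double-mutant glands, where ages and preparation differed.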

How the data were processed

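Submandibular glands had been dissociated, sorted for live single cells, fixed in methanol and run on Drop-seq. The counts deposited by the authors are UMIs per gene and cell barcode, unnormalized, from reads aligned with STAR to mm10 (submitters' processing notes). The bulk counts deposited by the authors were made with featureCounts 1.6.0, without a strand option although the kit is stranded, so overlapping antisense reads are counted together. The CITE-seq suspensions also held a low amount of human HEK cells, and the surface-protein counts were not used here.

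Cells with at least 100 genes and under 15% mitochondrial UMIs were kept. Without keratin genes, 2000 variable genes, 30 principal components and 20 neighbours gave Leiden clusters (resolution 1.0; scanpy 1.11.5, leidenalg 0.10.2, Python 3.11.15), which were named from at least 3 markers. Basal-like and myoepithelial-like clusters were split again (1000 genes, 10 components, resolution 0.5). Naming in 2 passes and this split were chosen after seeing the data.

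UMIs were summed per gland, which is the replicate, and tested with edgeR 4.0.16 (quasi-likelihood, TMM, filterByExpr, R 4.3.3) with Benjamini-Hochberg adjustment at 0.05. Sex and stage were covariates, or sex alone within a stage or genotype. Populations needed at least 10 cells in a gland. The test was first tried on simulated data. Standard errors are the fold change divided by the square root of its F statistic. DESeq2 1.42.0, other scalings, filters, thinning and left-out libraries were alternatives, of which plain UMI totals, the Ucma-led cluster alone and leaving out the 2 libraries against their sex labels within populations and in co-detection were chosen after seeing the data. Shares were compared by exact permutation or 100000 resamples (scipy 1.17.1). All 10 keratins are named. Of other lists at most 4 called genes in each direction are named, by size of the difference over all glands. The keratins, lists and markers were chosen with earlier results of these data known.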

Additional observations from a re-analysis of the deposited data

Results flagged for a closer look

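In 40 sets of 1 keratin in 1 group of glands, 12 held a gland far from the rest by Dixon's test at 95%. The test gives about 1 in 20 by chance for normally distributed values only, and these CPM held zeros, so no excess is read from this count. Double-mutant P40 replicate 2 was the highest of its group in 5 of the 12 sets, with 85.4 CPM of Krt5, 75.1 of Krt15, 200 of Krt17, 83.7 of Krt42 and 27.6 of Krt19. Double-mutant P40 replicate 1, 1 of the 2 libraries that went against their sex labels, was highest for Krt7 at 191 and Krt18 at 1003. Control P40 replicate 1 stood out for Krt15 at 12.5. The other 4 rest on at most 4 UMIs each: Krt6a at 0.600 in control P40 replicate 2 and 1.71 in control P90 replicate 1, and Krt42 at 0.209 in control P40 replicate 4 and 0.391 in control P90 replicate 5.

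The transcripts of the CITE-seq experiment were used in no comparison above. In its 2 double-mutant glands Krt19 was at 31.8 and 46.2 CPM (2.86 and 5.44 in its 2 control glands), Krt8 at 255 and 164 (96.7 and 69.8) and Krt7 at 70.8 and 67.1 (37.2 and 34.5). For these 3 genes the exact 95% counting intervals of both double-mutant glands lay above those of both control glands. How many of all genes did the same was not counted. These CPM are on plain UMI totals, which in the Drop-seq glands put the median of all genes at 0.68. Both double-mutant glands were labelled female, whereas the controls were of either sex. No test between glands was made, and these suspensions held some human cells.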

How the results depend on the processing

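Of the 5 keratins called over all glands, Krt17, Krt19, Krt6a and Krt42 passed edgeR's test when any 1 of 26 glands was left out, while Krt5 lost its call in 5 of those fits (without double-mutant P40 replicate 1 or 2, double-mutant P90 replicate 5 or control P40 replicate 4 or 6), with adjusted p up to 0.0530. Percentages in brackets are the share of all genes called in the same fit. The number called was 4 to 6 with 1 gland left out (15.5 to 30.5%) and 1 with glands thinned to the same UMI total (4.76%), where 6 were tested. At P40, 0 were called, but 2 by DESeq2 (6.67%), 7 without the filter on low counts (6.27%) and 2 with the replicate block (4.57%). With 1 gland left out, 0 to 3 were called at P40: 3 without double-mutant replicate 3 (5.12%) and 1 without double-mutant replicate 4 (1.17%). At P90, 1 was called, but 3 without the filter (5.34%). With 1 gland left out, 1 to 4 were called at P90, with 4 without double-mutant replicate 7 (16.9%). There were 2 without double-mutant replicate 1 (6.70%) or 6 (2.18%) or control replicate 3 (2.95%) or 4 (2.54%). Between stages in controls 2 were called without the filter (8.71%). In basal-like cells 4 were called with the replicate block (14.8%) and 0 in the Ucma-led cluster alone (0.394%). Same-numbered glands did not deviate together (correlations −0.28 to 0.46), so the numbers do not pair glands. The replicate block gave 6 over all glands (32.0% of all genes), with Krt14 at 1.23 (edgeR adjusted p = 0.0188).

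Signs changed for differences with edgeR or DESeq2 adjusted p of 0.0541 or more. Plain totals, added after seeing the data, gave 0.29 for Krt18, 0.43 for Krt7 and 0.57 for Krt8 over all glands, 0.45 for Krt18 at P40, and 0.23, 0.13, 0.05 and 0.38 for Krt15, Krt18, Krt7 and Krt8 at P90. Thinning gave Krt8 0.17. With 1 gland left out Krt8 ran from −0.18 to 0.04 over all glands, −0.14 to 0.14 at P40 and −0.34 to 0.05 at P90, Krt7 from −0.05 to 0.45 at P40 and Krt15 from −1.36 to 0.01 at P90. Without the 2 libraries that went against their sex labels Krt7 was −0.05 and Krt8 −0.14 at P40, and without the filter or with the block Krt8 was −0.01. For genotype by stage Krt42 was −0.37 by DESeq2 and −0.56 without double-mutant P90 replicate 4, and Krt6a 0.55 with the block. Between stages in double mutants Krt14 was −0.14 with the block and −0.07 without that library, and Krt42 −0.37 without it. Krt18 without the filter was −0.01 in epithelial-like and −0.13 in duct-like and in acinar-like cells, and −0.11 in duct-like cells at resolution 0.7. Krt8 was −0.02 in acinar-like cells without the filter. In basal-like cells Krt14 was −0.07 with at least 30 cells per gland and Krt15 0.16 with the block, and in the Ucma-led cluster Krt14 was −0.14, Krt17 −0.08, Krt18 0.12, Krt7 0.13 and Krt8 0.25.

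Co-detection in basal-like cells lost its call thinned to 1000 UMIs (−8.68 points), not thinned (−19.5), in the Ucma-led cluster (−4.29), without double-mutant P90 replicate 4 (−11.2) and without the 2 mislabelled-sex libraries (−11.2). Krt15 in CSC-like cells was 27.4 with at least 30 cells per gland and 9.13 otherwise, levels that rest on 4 UMIs in double-mutant and 0 in control cells. The cause was not tested.

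Counts of all genes called moved from 2308 to 5583 with plain totals and 274 thinned over all glands. At P40, 26 became 50 with RLE factors, 681 by DESeq2, 1657 without the filter, 467 with the block, 15 without the 2 libraries and 7 to 551 with 1 gland left out. At P90, 446 became 996, 1430, 994 and 235 by DESeq2, without the filter, with the block and without the 2 libraries, 825 with plain totals, 684 without replicate 4 and 206 to 1651 with 1 gland left out. In epithelial-like cells 721 became 1159, 1535, 1619 and 386 in the same order and 3732 with plain totals. In basal-like cells 130 became 299 without the filter and 2 in the Ucma-led cluster. In bulk, 2723 genes past 2-fold became 5870 past 1.5-fold. Rare UMIs limit Krt42 and Krt6a in controls, where 3 or fewer counts cannot be told from 0.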

Other observations

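The other keratins in the CITE-seq glands are given here as values. Krt14 was at 9.08 and 0 CPM in the 2 double-mutant glands and 18.9 and 23.6 in the 2 control glands, Krt17 at 9.98 and 0 against 8.01 and 14.1, and Krt15 at 0 and 1.49 against 6.86 and 6.80. Krt5 was at 6.35 and 2.98 against 3.43 and 4.99, and Krt18 at 436 and 270 against 297 and 240. Krt6a had 6 and 5 UMIs in the double-mutant glands and 0 in both control glands, and Krt42 had 1 UMI in 1 double-mutant gland and 0 in the other 3. Krt6a was thus seen in double-mutant glands only in these 4 libraries, with 0 allowing up to 1.72 and 1.36 CPM in the controls.

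Of the 142 Krt6a UMIs in the Tnc-led basal-like cluster, 10 cells held 70.4% and 1 cell 37 UMIs, so a level pooled over this cluster rests on few cells, as does that of Krt42 in the Chil1-led cluster.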
